A study of Oryza sativa with 6 samples.

Results

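The pathogenesis-related genes of the PR1, PR4, PR5 and PR10 classes were followed in root tips of rice (Oryza sativa). The 10 loci are a list of named genes among the 56962 genes of the deposited count table. The list was drawn up with earlier results of these data known. They are PR1a (LOC_Os07g03710), PR1b (LOC_Os01g28450), 4 PR4 genes in tandem (LOC_Os11g37940, LOC_Os11g37950, LOC_Os11g37960 and LOC_Os11g37970), PR5 (LOC_Os12g43430), PBZ1 or PR10a (LOC_Os12g36880), RSOsPR10 (LOC_Os12g36830) and JIOsPR10 (LOC_Os03g18850). RNA was sequenced from 3 libraries of the wild type J10 and 3 of the mutant lad, also named sr1. Seedlings of both genotypes were grown at 25°C without a stated treatment, and at 6 days after sprouting the terminal 0.5 cm was cut. SHORT-ROOT 1 is tied by the title of the study to division of cells and to tracheary elements in the root. The labels do not give the allele of lad, its origin, or whether the libraries of a genotype came from separate plants, so p-values measure the spread between these libraries, which may be technical.

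Pathogenesis-related proteins are small, mostly stable proteins that plants accumulate after infection, wounding or treatment with defence hormones. PR1 proteins belong to the CAP superfamily and are secreted, and their transcripts serve as readouts of salicylate and jasmonate responses in rice. PR4 proteins carry a barwin domain, which in several plants binds chitin or cleaves RNA, and PR5 proteins resemble thaumatin. PR10 proteins share the Bet v I fold and stay inside the cell. PBZ1 was named for its induction by probenazole, a compound that primes rice against blast fungus, JIOsPR10 for induction by jasmonate, and RSOsPR10 for expression in roots.

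Library totals ran from 16405022 to 20693114 counts. Levels are given as CPM, counts scaled to library size with TMM factors, and a gene is said to have risen or fallen when its adjusted p passed the threshold of 0.05. Of 22624 genes tested, 45.2% passed in either direction, 24.9% passed as higher in the mutant, and 4.98% passed as higher by 8-fold or more. The tissue label was checked on small locus lists. All 3 loci listed for the root meristem (2 with a GRAS domain, 1 with a homeobox) were present, at a summed 96.4 to 109 CPM in wild type and 61.2 to 80.6 CPM in mutant libraries, and 2 of them fell. The 4 loci listed for green shoots summed to 2.54 to 3.39 CPM in wild type and 2.12 to 3.84 CPM in mutant libraries, with 2 of the 4 at 0 counts throughout. None of the 3 cellulose synthase loci listed for xylem passed. They summed to 171 to 439 CPM in wild type and 216 to 333 CPM in mutant libraries. Each of the 3 was lowest in replicate 2 of both genotypes. The 1 aquaporin locus listed for root uptake rose (125 to 237 CPM in wild type libraries, 375 to 512 CPM in mutant ones). Of 2 loci listed for the germinating grain, 1 was at 0 and the other did not pass. The part of these differences in the results below was not tested. In bulk tips, a difference in the number of cells of a type and a difference in RNA per cell cannot be told apart.

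The mutant root tips held far more PR transcript than the wild type. Summed over the 10 genes, the level was 22.5, 34.4 and 27.5 CPM in wild type replicates 1, 2 and 3, and 950, 563 and 909 CPM in mutant replicates 1, 2 and 3. The groups did not overlap, and the ratio of their means was 28.7. PR1a, PBZ1, RSOsPR10 and JIOsPR10 made up 93.9 to 99.1% of that sum in every library. These 4 genes passed the filter on low counts in the wild type libraries alone, and all 4 rose by more than 8-fold. Among the 20337 genes that pass in the wild type alone, 21.0% were higher in the mutant and 1.24% were higher by 8-fold or more. The 4 PR4 genes passed the filter through the mutant libraries, so their calls are given gene by gene and not as a count. PR1b and PR5 did not pass it and were not tested.

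**Figure D1:**
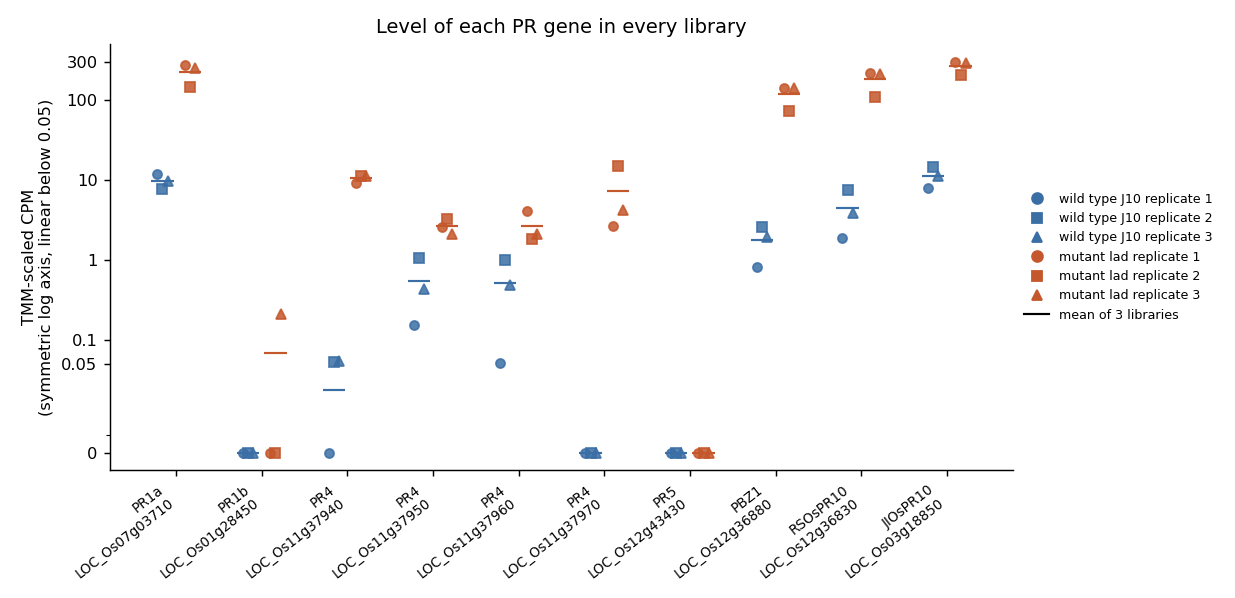
TMM-scaled CPM of the 10 PR genes in each of the 6 libraries, on a symmetric log axis that is linear below 0.05 CPM. Blue marks are wild type J10, orange marks mutant lad, the shape gives the replicate number, and bars are means of 3 libraries. Mutant marks lie above wild type marks for PR1a, PBZ1, RSOsPR10 and JIOsPR10. This held for 26.2% of the genes that pass the filter in the wild type alone. The PR4 genes were also apart, but they passed the filter through the mutant libraries, which favours this. PR1b and PR5 lie at or near 0.

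PR1a is the secreted CAP protein gene used as a defence marker in rice. Its mean level per kilobase was the second highest of the 10 in both genotypes. The gene lies on the plus strand of chromosome 7 from 1512025 to 1512958 in the deposited table, which names no genome build. Its level was 11.8, 7.74 and 9.56 CPM in wild type replicates 1 to 3 and 276, 144 and 250 CPM in mutant replicates 1 to 3. Every mutant library stood above every wild type library, and mutant replicate 2 was the lowest of the mutants. Means were 9.69 ± 2.02 and 223 ± 69.7 CPM (SD, n = 3 libraries per genotype, here and below). PR1a rose by 4.52 ± 0.26 (SE) on the log2 scale (edgeR quasi-likelihood, Benjamini-Hochberg adjusted p = 6.73e-07).

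PR1b was barely detected. This CAP gene on chromosome 1 (15934491 to 15935319) is a common marker of induced defence in rice leaves. All wild type libraries and mutant replicates 1 and 2 had 0 counts of it, and there were 4 counts in mutant replicate 3. Zero counts over the wild type group allow a level of up to 0.0526 CPM, taking 3 counts as the limit, which covers counting error only. No fold is given at this depth. In the fit without a filter on low counts its log2 difference was 3.54 (edgeR quasi-likelihood, adjusted p = 0.267).

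The PR4 genes stand side by side on the plus strand of chromosome 11 between 22498498 and 22512404, and all 4 carry the deposited description of a barwin domain. No other gene of the table has that description. Summed over the cluster, which does not depend on how reads are divided among similar copies, the level was 0.206, 2.09 and 0.973 CPM in wild type replicates 1 to 3. The same sum was 18.3, 31.0 and 19.5 CPM in mutant replicates 1 to 3. Mutant libraries were all higher than wild type libraries, and the ratio of the means was 21.0. The similarity of the copies was not measured here, and values of single copies are uncertain to the extent that reads could be shared among them.

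The outer genes of the cluster were nearly silent in the wild type, while the inner ones had low counts, most of them in replicate 2. LOC_Os11g37940 had 0, 1 and 1 counts in wild type replicates 1 to 3 and 167, 188 and 215 counts in mutant replicates 1 to 3. Its mutant libraries were close to each other, at 10.4 ± 1.23 CPM, and the ratio to wild type was 298 with a 95% exact binomial interval from 82.1 to 2465. That ratio was 196 without wild type replicate 1, 396 without wild type replicate 2 and 402 without wild type replicate 3. Leaving out a wild type library thus moved it either way, with so few wild type counts behind it. The gene rose with an adjusted p of 5.75e-07 (edgeR quasi-likelihood, Benjamini-Hochberg).

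LOC_Os11g37970, at the other end, was at 0 in every wild type library and had 49, 248 and 80 counts in mutant replicates 1 to 3. Mutant replicate 2 alone held most of its reads. In CPM the mutant libraries stood at 2.65, 14.7 and 4.14, so the spread within the mutant (7.18 ± 6.59 CPM) was wide. Against a floor of 3 counts over the wild type group the gene was at least 131-fold higher (edgeR quasi-likelihood, adjusted p = 0.000452). Without mutant replicate 2 that bound was 64.9, and with 1 wild type library left out it was 86.6 to 88.7 because less wild type depth remained.

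The inner genes had a low wild type level that differed between libraries, each past the filter cutoff of 0.528 CPM in only 1 wild type library. LOC_Os11g37950 had 3, 20 and 8 counts in wild type replicates 1 to 3 and 47, 54 and 41 counts in mutant replicates 1 to 3. Its groups were apart in CPM, with 2.12 in the lowest mutant library against 1.05 in the highest wild type library. It rose by 2.26 ± 0.55 (SE) on the log2 scale (edgeR quasi-likelihood, adjusted p = 0.00682), and by 3.12 without wild type replicate 2. LOC_Os11g37960 had 1, 19 and 9 counts in wild type replicates 1 to 3 and 76, 31 and 40 counts in mutant replicates 1 to 3. In CPM its lowest mutant library, at 1.84, stood above its highest wild type library, at 0.994. It rose by 2.38 ± 0.66 (SE) on the log2 scale (edgeR quasi-likelihood, adjusted p = 0.0136). That call was lost without wild type replicate 3 (adjusted p = 0.0536) and without mutant replicate 1 (adjusted p = 0.0765), and without wild type replicate 2 the change was 3.28.

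**Figure D2:**
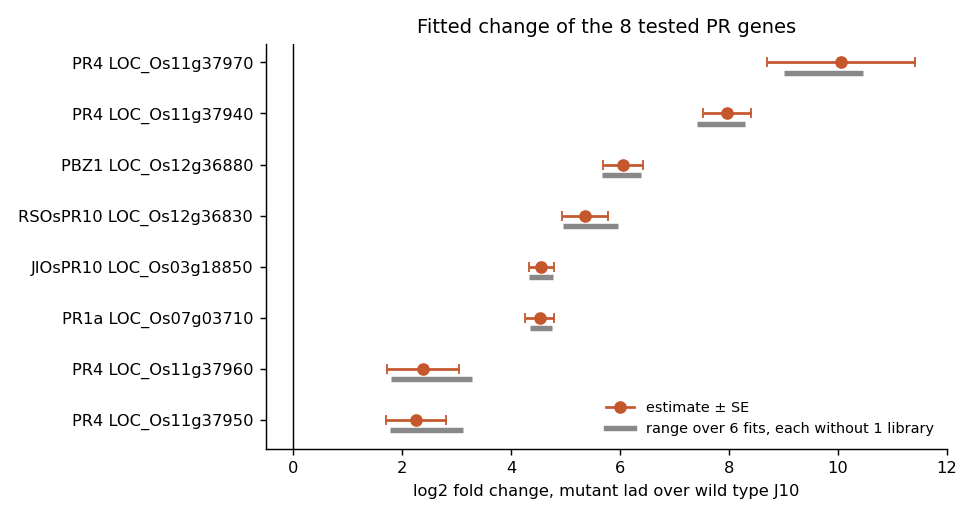
Fitted log2 fold change (mutant lad over wild type J10) of the 8 tested PR genes, with its SE, and in grey the range over 6 fits that each leave out 1 library. The changes run from 2.26 for LOC_Os11g37950 to 10.06 for LOC_Os11g37970, whose wild type counts are all 0, so that its fitted value depends on the prior count and is no bound.

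PR5 was listed at 0 counts in all 6 libraries. The thaumatin-like gene is given as a span from 26913126 to 26922761 on the minus strand of chromosome 12, with a gene length of 734 bases. Over that span the table lists LOC_Os12g43380, which shares 726 bases with it, and LOC_Os12g43390, which shares 525 bases. Both lie on the same strand, carry a thaumatin domain and were at 0 throughout. Overlaps here are between start-to-end spans, so how much of the 734 bases of gene length is shared is not known. The sources used here do not say how reads in overlapping genes were counted, and its part in these zeros was not tested. Of the 251 genes in the table that overlap another on the same strand, 55.0% were at 0 in all libraries, against 46.4% of all genes and 25.6% of the 43 thaumatin genes. The 0 for PR5 is therefore given as a listed value and not as absence of the transcript.

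Summed over the 3 PR10 genes, the level was 10.5, 24.5 and 16.9 CPM in wild type replicates 1 to 3 and 656, 387 and 639 CPM in mutant replicates 1 to 3. PBZ1, on chromosome 12 from 22599952 to 22601258, measured 0.823, 2.56 and 1.95 CPM in wild type replicates 1 to 3. In mutant replicates 1 to 3 it measured 143, 71.5 and 139 CPM. Groups were far apart, and the lowest mutant library was the second. The means were 1.78 ± 0.88 and 118 ± 40.01 CPM, a gain of 6.05 ± 0.37 (SE) on the log2 scale (edgeR quasi-likelihood, adjusted p = 9.21e-07).

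RSOsPR10 lies in the same tandem array on chromosome 12, from 22580778 to 22581972, and carries no description in the deposited table. Its level was 1.85, 7.48 and 3.84 CPM in wild type replicates 1 to 3, and 219, 110 and 210 CPM in mutant replicates 1 to 3. Wild type replicate 2 was the highest wild type library, as it was for PBZ1. RSOsPR10 rose by 5.36 ± 0.42 (SE) on the log2 scale (edgeR quasi-likelihood, adjusted p = 4.39e-06). Without wild type replicate 2 the rise was 5.96, which is more than 1.5 times larger on the linear scale.

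JIOsPR10, on chromosome 3 from 10562231 to 10563279, has no other gene described as Bet v I within 50 kb. JIOsPR10 had the highest mean level per kilobase of the 10 genes in both genotypes. It measured 7.87, 14.5 and 11.1 CPM in wild type replicates 1 to 3 and 294, 206 and 290 CPM in mutant replicates 1 to 3. Again all mutant libraries were above all wild type libraries, with the second mutant library lowest and the second wild type library highest. JIOsPR10 rose by 4.56 ± 0.23 (SE) on the log2 scale (edgeR quasi-likelihood, adjusted p = 3.29e-07).

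On mean CPM per kilobase of gene length, the 4 abundant genes kept the same order in both genotypes. In wild type, JIOsPR10 (12.7 ± 3.76 CPM per kb) was followed by PR1a (10.4 ± 2.16), RSOsPR10 (4.89 ± 3.18) and PBZ1 (1.80 ± 0.89). In the mutant the levels were 299 ± 56.5, 239 ± 74.6, 200 ± 67.4 and 119 ± 40.6 CPM per kb in that order. Neighbours in this order overlapped in their library ranges in both genotypes, so the order is a description. Within each mutant library the order was the same. In wild type replicate 1, PR1a stood above JIOsPR10 (12.6 against 8.93 CPM per kb). In wild type replicate 2, RSOsPR10 stood just above PR1a (8.33 against 8.29 CPM per kb). Below these 4 genes in the mutant, every PR4 gene was apart from PBZ1, which had 72.5 CPM per kb in its lowest library. The highest PR4 value was 21.5 CPM per kb, of LOC_Os11g37970 in replicate 2. The PR4 neighbours in the mutant order overlapped each other. In wild type the library ranges of PBZ1, LOC_Os11g37960 and LOC_Os11g37950 overlapped from each to the next, and LOC_Os11g37940 stood apart below them.

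The mutant libraries differed among themselves in the level of the PR genes. PR1a, PBZ1, RSOsPR10, JIOsPR10 and LOC_Os11g37960 were lowest in mutant replicate 2, where their CPM were 0.549, 0.508, 0.513, 0.705 and 0.596 times the mean of replicates 1 and 3. Being lowest there was common, since 59.7% of the 5644 genes higher in the mutant were lowest in replicate 2, close to the share of the 8 tested PR genes (62.5%). The median of the quotient over those 5644 genes was 0.863, and 11.1% of them lay under 0.6. LOC_Os11g37970 went the other way, at 4.34 times the mean of the other mutant libraries. The ratio of RSOsPR10 to PBZ1 in CPM per kb hardly moved in the mutant, at 1.68, 1.69 and 1.66 in replicates 1 to 3, against 2.47, 3.20 and 2.17 in the wild type. PR1a over PBZ1 was 2.04, 2.13 and 1.90 in mutant replicates 1 to 3 and 15.1, 3.19 and 5.19 in wild type replicates 1 to 3. PBZ1 counts in wild type were 16, 49 and 36, so counting error is larger in the wild type ratios than in the mutant ones. Its part in their spread was not tested. PR1a was lowest in wild type replicate 2 (7.74 CPM), where PBZ1 was highest (2.56 CPM). Among the 8 tested PR genes, 5 (62.5%) were highest in wild type replicate 2. This was so for 24.5% of the 5644 genes higher in the mutant and for 38.1% of all tested genes. Without replicate 2 of both genotypes, a choice made after seeing the data, the log2 changes were 4.62 for PR1a, 6.67 for PBZ1, 6.24 for RSOsPR10 and 4.94 for JIOsPR10.

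**Figure D3:**
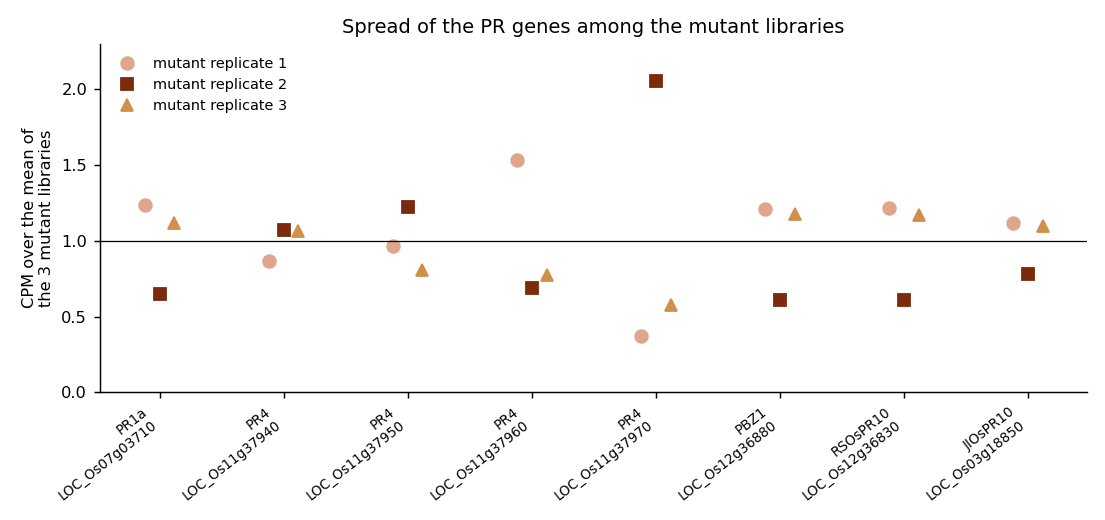
CPM of the 8 tested PR genes in each mutant library, divided by the mean of the 3 mutant libraries. Replicate 2 (dark squares) is the lowest for 5 genes and 4.34 times the mean of replicates 1 and 3 for LOC_Os11g37970.

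The loci around the PR genes were examined to see whether the change covered whole stretches. Of 94 other genes within 50 kb of any of the 10, 38 were tested, of which 14 rose, 8 fell and 16 did not pass. Over all tested genes 24.9% rose. The median log2 change of the 38 was 0.01, against 0.02 over all tested genes. The number that rose and the median include genes tested only through their mutant libraries, such as LOC_Os12g36860, which raises both. Relatives in the same array did rise. Between RSOsPR10 and PBZ1, the Bet v I gene LOC_Os12g36850 went from 2.89 ± 1.51 to 80.4 ± 21.2 CPM (log2 change 4.79 ± 0.31, edgeR quasi-likelihood adjusted p = 1.44e-06). Its neighbour LOC_Os12g36860, also described as Bet v I, had 0, 3 and 0 counts in wild type replicates 1 to 3 and 69, 24 and 30 in mutant replicates 1 to 3, a ratio of 42.8 (95% exact binomial interval 14.3 to 211). All of its wild type counts lay in replicate 2, without which it was at least 28.5-fold higher, and the ratio was 28.2 and 29.0 without wild type replicates 1 and 3. With RSOsPR10 and PBZ1 these genes summed to 9.11 ± 5.26 CPM in J10 and to 380 ± 121 CPM in lad. Of 9 tested genes within 50 kb of PBZ1 and outside the 10, 5 rose, namely LOC_Os12g36850, LOC_Os12g36860 and 3 described as CALMODULIN-BINDING PROTEIN60, while 2 fell and 2 did not pass. The latter 3, chosen after their values were seen, went from 15.1 ± 2.17 to 99.4 ± 15.6 CPM for LOC_Os12g36910, from 5.01 ± 0.121 to 21.7 ± 5.38 CPM for LOC_Os12g36920 and from 4.71 ± 1.52 to 42.9 ± 7.21 CPM for LOC_Os12g36940 (edgeR quasi-likelihood adjusted p from 6.54e-07 to 1.81e-05). The gene nearest to PBZ1 on the same side, LOC_Os12g36890, described as cellulose synthase, did not pass (log2 difference -0.16, adjusted p = 0.291), and was also chosen after its values were seen. Near the PR4 cluster the polyketide synthase-like gene LOC_Os11g37900, chosen in the same way, rose from 1.76 ± 0.62 to 19.1 ± 4.17 CPM (adjusted p = 4.69e-06).

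Near PR1a, 5 further CAP genes lie within 50 kb, of which 1 was tested. LOC_Os07g03730, 11.6 kb from PR1a, rose from 0.0698 ± 0.121 to 8.95 ± 2.68 CPM (edgeR quasi-likelihood adjusted p = 1.26e-05). Its 4 wild type counts all lay in replicate 2, without which it was at 0 in the wild type. Near PR5, LOC_Os12g43410 had 2, 4 and 3 counts in wild type replicates 1 to 3 and 398, 219 and 496 counts in mutant replicates 1 to 3. This thaumatin gene, 19.1 kb from the start of PR5, rose by 6.93 ± 0.39 on the log2 scale (adjusted p = 6.45e-07). LOC_Os12g43440, also a thaumatin gene, rose from 0.243 ± 0.264 to 2.33 ± 0.638 CPM (adjusted p = 0.00356), by 3.22 on the log2 scale, which became 4.37 without wild type replicate 2 and 2.63 without wild type replicate 3. So PR5 itself was at 0 while other thaumatin genes of the same stretch were counted.

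**Figure D4:**
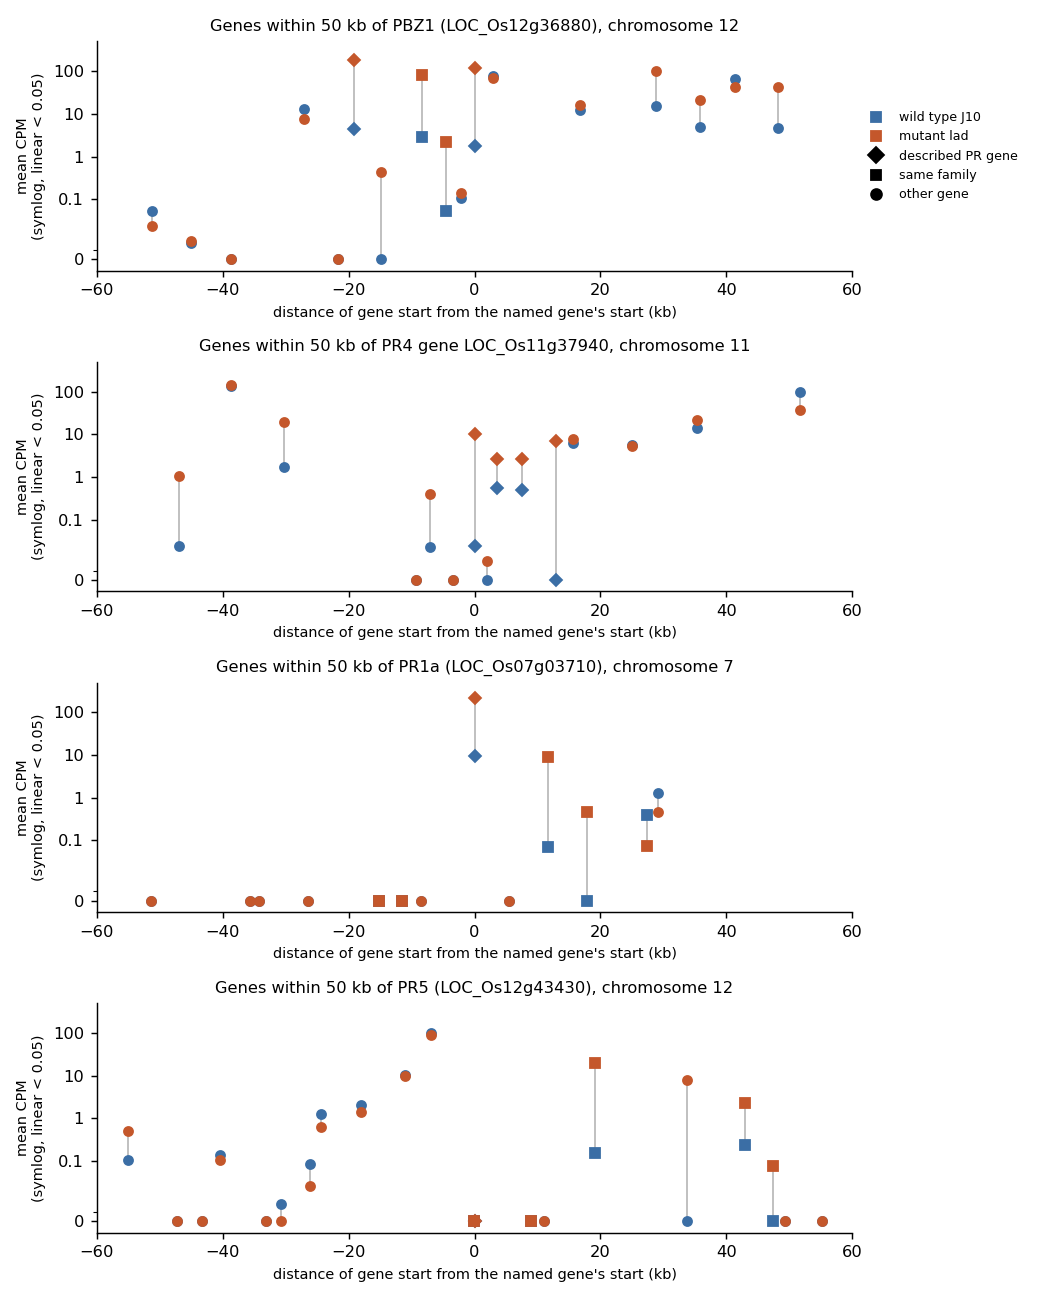
Mean CPM in wild type (blue) and mutant (orange) of every gene within 50 kb of PBZ1, of the PR4 gene LOC_Os11g37940, of PR1a and of PR5, against the distance of its start from the named gene's start in kb. Diamonds are the PR genes described here, squares other genes of the same family and circles other genes, on a symmetric log axis that is linear below 0.05 CPM. Large differences are seen at PR genes, at some relatives and at some genes of other families, such as LOC_Os12g36910 at 28.8 kb from PBZ1.

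The other genes of the 4 protein families were read from the same fit. The CAP family has 38 other genes in the table, of which 16 were at 0 counts throughout and 13 were tested. Of these 13, 7 rose, 3 fell and 3 did not pass, with a median log2 change of 2.17. Over all tested genes 24.9% rose. The CAP count and median include genes tested only through their mutant libraries, which raises both. LOC_Os07g03600, on chromosome 7 like PR1a (1444313 to 1445070), had 7, 7 and 7 counts in wild type replicates 1 to 3 and 605, 364 and 637 counts in mutant replicates 1 to 3 (adjusted p = 1.61e-07). LOC_Os10g11500 rose from 12.8 ± 2.95 to 154 ± 16.9 CPM (adjusted p = 2.66e-07). In the opposite direction, LOC_Os02g54540 fell from 29.9 ± 3.65 to 13.5 ± 1.89 CPM (adjusted p = 0.000163) and LOC_Os02g54570 from 60.8 ± 21.4 to 18.6 ± 0.81 CPM (adjusted p = 0.000193, all edgeR quasi-likelihood).

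Thaumatin genes went in both directions. Of the 42 other genes of this family, 27 were tested, and 12 rose, 6 fell and 9 did not pass, with a median log2 change of 0.04. The share that rose over all tested genes was 24.9%. Besides LOC_Os12g43410, the rule named LOC_Os11g47680, which had 0.257, 2.83 and 1.08 CPM in wild type replicates 1 to 3 and 147, 101 and 180 CPM in mutant replicates 1 to 3 (adjusted p = 2.02e-06). Its log2 change was 6.68, and 7.71 without wild type replicate 2. LOC_Os03g13070 fell from 26.3 ± 1.98 to 11.2 ± 1.05 CPM (adjusted p = 5.55e-05) and LOC_Os10g05600 from 70.7 ± 9.48 to 34.7 ± 3.33 CPM (adjusted p = 0.000114, all edgeR quasi-likelihood). Rises of 8-fold or more were seen for 7 of the 27 thaumatin genes and for 5 of the 13 CAP genes, against 4.98% of all tested genes, counts that include genes tested only through their mutant libraries. Of the 6 other genes described as Bet v I, 3 were tested, namely LOC_Os12g36850 and LOC_Os12g36860 above and LOC_Os04g50700, which did not pass (log2 difference -0.28, adjusted p = 0.0895).

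**Figure D5:**
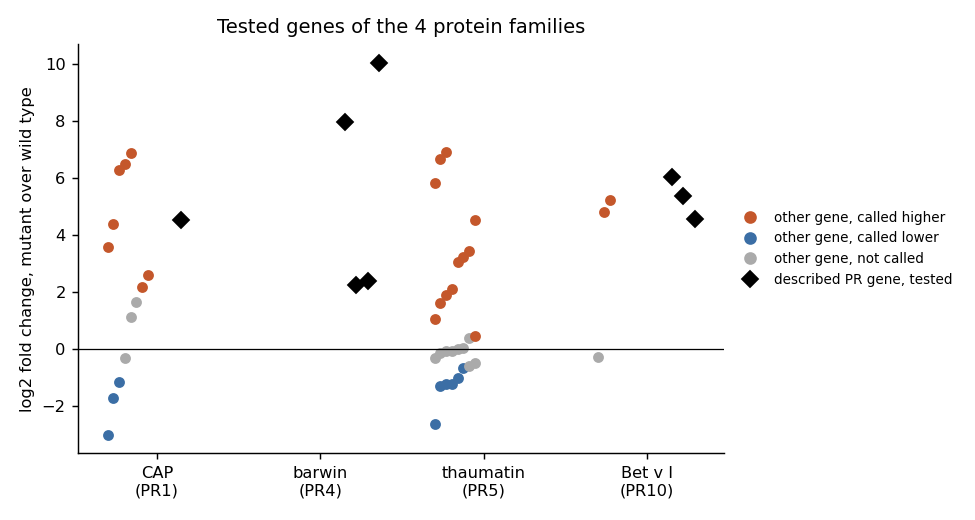
Log2 fold change (mutant over wild type) of every tested gene in the CAP, barwin, thaumatin and Bet v I families, with the tested PR genes as black diamonds placed to the right. Orange circles rose, blue circles fell and grey circles did not pass. CAP and thaumatin genes went in both directions, from -3.01 to 6.87 and from -2.65 to 6.93.

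Among the 20337 genes that pass the filter in the wild type alone, the 3 mutant libraries lay above the 3 wild type libraries for 26.2%, and this was so for PR1a, PBZ1, RSOsPR10 and JIOsPR10. To describe which transcripts most resembled a PR gene, log2(CPM + 0.5) over the 6 libraries was centred on each gene's mean, and the described gene with the smallest root mean square difference was taken from 12249. For PR1a this was the cupin gene LOC_Os03g58980 (0.144 log2 units), which went from 0.965 ± 0.297 to 27.97 ± 8.22 CPM. PBZ1 and RSOsPR10 had the same closest gene, the fatty acid desaturase gene LOC_Os07g23410 (0.206 and 0.245 log2 units), at 0.246 ± 0.263 and 31.2 ± 7.70 CPM. For JIOsPR10 it was the terpene synthase gene LOC_Os04g09900 (0.133 log2 units), at 0.755 ± 0.373 and 28.2 ± 8.09 CPM. For LOC_Os11g37970 the closest was the globin gene LOC_Os03g12510 (0.254 log2 units), with 3.25, 16.2 and 3.94 CPM in mutant replicates 1 to 3, so its mutant replicate 2 stood out too. The remaining PR4 genes were closest to LOC_Os03g52180 (0.0807 log2 units from LOC_Os11g37940), LOC_Os09g31478 (0.158 from LOC_Os11g37950) and LOC_Os01g71710 (0.276 from LOC_Os11g37960). All points of these profiles share the same 6 libraries. The added 0.5 CPM shrinks changes from levels near 0, so a closest gene can differ in fold. LOC_Os07g23410 changed by 6.95 on the log2 scale, against 6.05 for PBZ1 and 5.36 for RSOsPR10.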

How the data were processed

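The authors deposited 1 table of whole-number read counts per gene for the 6 libraries, with coordinates, gene length, a description and a domain for part of the genes. The values were treated as raw, although the table itself does not show this. Bowtie 0.12.2 and the mouse builds mm8 and mm9 appear in the submitters' processing notes, and mouse builds cannot have given rice loci. Counting tool, strand setting, annotation and rice build: not given in the sources used here. Values of overlapping genes and near-identical copies are therefore uncertain.

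The analysis used edgeR 4.0.16 (R 4.3.3): expression filter by group (22624 genes), TMM scaling, a quasi-likelihood fit with genotype as its only term over all 6 libraries, two-sided, with p-values adjusted by Benjamini-Hochberg across the tested genes and called at 0.05. Folds are log2, mutant over wild type, and the SE is the absolute fold over the square root of F. For 0 wild type counts a bound at 3 counts over the group is given, and for 1 to 3 counts a ratio with an exact binomial 95% interval. Neither covers more than counting error, since reads were not tied to single molecules. Alternatives were DESeq2 1.42.0, RLE, upper-quartile and total scaling, other filters, a replicate block, and each library left out. The procedure was tested on simulated counts.

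Families were read from the description (barwin, Bet v I) or, where that was blank, from the deposited domain column (SCP for CAP, Thaumatin). Genes named beyond the 10 were, per family, up to 2 higher and 2 lower called genes ranked by adjusted p, with means of 5 CPM or more, called relatives within 50 kb, and closest profiles. The members and lists were chosen with earlier results of these data known. Sequences were not analysed here.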

Additional observations from a re-analysis of the deposited data

How the results depend on the processing

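Of the 14 alternatives tried, 13 were planned and 1, without replicate 2 of both genotypes, was added after seeing the data. PR1a, PBZ1, RSOsPR10 and JIOsPR10, which pass the filter in the wild type alone, were higher in the mutant under all 14 alternatives (21.0% of such genes were higher in the main analysis), and the number of all genes called was 7804 to 11191, against 10229. CAP genes higher in the mutant numbered 6 to 9 (7 in the main analysis), thaumatin genes 9 to 13 (12), Bet v I genes 2 throughout (2) and genes near the PR loci 13 to 17 (14). These family and neighbour counts include genes tested only through their mutant libraries, which raises them. The PR4 genes were tested through their mutant libraries, which favours a higher call, so they are given gene by gene. LOC_Os11g37940, LOC_Os11g37950 and LOC_Os11g37970 kept their call under every alternative. LOC_Os11g37960 kept its direction but lost its call without wild type replicate 3 or mutant replicate 1. Scaling moved the median log2 change of all genes by at most 0.089, with library totals, and upper-quartile factors moved the share of higher among called genes from 55.2% to 49.3%; library totals gave 63.1%. Whether the numbers 1 to 3 pair the libraries is not stated, and 3 libraries per genotype cannot settle it. Deviations from the group means correlated at 0.0572, 0.129 and -0.0317 for replicates 1, 2 and 3. Libraries of unlike number correlated at -0.147 to 0.101, the highest being wild type replicate 1 with mutant replicate 3. A replicate block gave 10648 called genes. With a replicate block no tested PR gene lost its call, with a log2 change of 4.50 for PR1a and 5.99 for PBZ1. Depth limits PR1b, with 4 counts in all, and the wild type levels of the PR4 genes.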
